A study of Triticum aestivum with 42 samples.

Results

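The control plants of this series were of Solstice, a winter wheat, and they lost light and day-length week by week while day and night temperatures were held at 16°C and 14°C. They have 6 of the 42 arrays of the series, with 1 crown and 1 leaf array at each of 3, 5 and 9 weeks. All 6 arrays were used here and were chosen by their labels alone, as 3 crown arrays against 3 leaf arrays. By 3 weeks the plants had 14 h of light at a photosynthetically active radiation (PAR) of 280, by 5 weeks 12 h at 185, and by 9 weeks 9 h at 95, in a unit that the sources used here do not name. Crown RNA was not from the meristem alone, because young leaf bases, a piece of stem and its vascular junction were taken along with the shoot tip. Each RNA came from 4 pooled plants, so the spread between arrays of a tissue covers both the pools and the weeks. Harnesk, a second winter variety, is used for comparison and has 12 arrays, 2 per tissue and week. It had the same light and the same temperatures at 3 weeks but was cooled to 14°C and 10°C by 5 weeks and to 8°C and 4°C by 9 weeks. No plant on the 6 control arrays was vernalised.

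Crown and leaf do different work in a young cereal. The crown encloses the shoot apical meristem, where cells divide and new leaves and later the spike are laid down, and dividing cells need histones to package new DNA and tubulins to build the spindle. The expanded leaf blade is built mainly of mesophyll, whose chloroplasts harvest light, split water and fix carbon dioxide, and whose peroxisomes hold the catalase that removes the hydrogen peroxide of photorespiration. In winter cereals a long cold period promotes the change to reproductive growth and raises the MADS-box gene VRN1. The genes that set this transition act in both the leaf and the apex. The study reported that TaVRN1 also rose in its control plants, to a lesser extent than in vernalised ones.

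Each value is a ratio to the median of its own gene, so levels are compared between tissues for a gene and not between genes. Of the probe-sets that differed between the tissues, 30.5%, 23.5% and 34.9% lay within 2-fold of a ratio of 1 on the crown arrays, against 73.0%, 80.4% and 76.5% on the leaf arrays. Marker averages separated the 2 tissues on the 6 arrays, least clearly for mesophyll on the 9-week leaf array. The 28 probe-sets for histones H2A and H2B and for tubulins averaged 4.11, 4.55 and 4.10 log2 on the crown arrays of 3, 5 and 9 weeks, against -0.44, -0.41 and -0.57 on the leaf arrays. The 36 mesophyll probe-sets averaged -1.29, -1.44 and -1.74 in crown and 0.38, 0.29 and -0.08 in leaf. Of these 36, 13 were higher in leaf and 1 was higher in crown by the test used below, and the others did not pass. Most of the 36, 28 in number, are for rbcl, the large Rubisco subunit. CAT1, at 1 of its 2 probe-sets, and PRK, both mesophyll markers, stood at the lowest deposited value of 0.01 on all 3 crown arrays. No light-harvesting gene, small Rubisco subunit or KNOX homeobox gene has a name in the annotation used here. Over the 15719 probe-sets that differed between Harnesk crown and leaf, the control crown arrays had mean rank correlations of 0.816, 0.889 and 0.804 with Harnesk crown. The control leaf arrays had 0.742, 0.641 and 0.206 with Harnesk leaf.

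The 9-week leaf array and the 3-week crown array stood apart. Ranked over all probe-sets, the leaf array of 9 weeks correlated with its fellow leaf arrays at a mean of 0.101, and the leaf arrays of 3 and 5 weeks at means of 0.436 and 0.445. Its interquartile range was the narrowest of the 3, at 0.514 log2. The 3-week crown array had an interquartile range of 0.781 log2, against 0.486 and 0.479 on the crown arrays of 5 and 9 weeks. By rank correlation with its fellow crown arrays it did not stand apart, with a mean of 0.523, against 0.648 at 5 weeks and 0.495 at 9 weeks. Differences between the 3′ and 5′ probe-sets of 7 wheat control genes, a sign of RNA integrity, averaged 0.27, 0.60 and 0.25 log2 on the crown arrays and 0.21, 0.22 and 0.34 on the leaf arrays. The range on the 12 Harnesk arrays was -0.11 to 0.17. The part of these offsets in the results was not tested, and results that depend on the 2 arrays are given without them as well. Leaving them out sets crown of 5 and 9 weeks against leaf of 3 and 5 weeks. Tissue is then mixed with age and light.

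Of 61179 probe-sets, 8618 (14.1%) differed at least 2-fold between crown and leaf at an adjusted p below 0.05, the 2 thresholds that a probe-set is said here to pass. Crown was higher in 4774 of these (7.8% of all probe-sets) and leaf in 3844 (6.28%). At least 5-fold differences were found in 3558 (5.82%), with 1781 higher in crown and 1777 higher in leaf. All 8618 had 3 crown values that did not overlap the 3 leaf values, a separation that 30.1% of all probe-sets showed. Without the 2 arrays that stand apart, 12179 probe-sets differed 2-fold (19.9%), 8183 of them higher in crown (13.4%) and 3996 higher in leaf (6.53%). The share of calls that were higher in crown was then 67.2%, against 55.4% with all 6 arrays. Of the 8618 calls, 7693 were called again without these arrays and all kept their sign. An exact permutation test of 3 arrays against 3 cannot give a p below 0.1, so the p-values rest on the t distribution that limma assumes. Its spread joins that of each probe-set (4 degrees of freedom) with that shared across probe-sets (2.75).

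Most of these probe-sets have no gene name here. The annotation ties 1273 probe-sets to a gene, and 8236 of the 8618 calls (95.6%) lie outside it and outside the flowering genes that the study listed. Of these, the probe-set furthest towards each tissue is given here, chosen by size. Ta.10329.9.S1_a_at had ratios of 477, 715 and 436 in crown, against 0.843, 0.826 and 0.931 in leaf (log2 difference 9.26). Ta.12118.1.S1_a_at was at 0.01 on the 3 crown arrays and at 2.23, 1.86 and 3.02 on the leaf arrays. Gene names were available for 265 probe-sets of 149 genes, of which 43 were higher in crown, 44 were higher in leaf and 178 did not pass. Counts for the gene lists are to be read against the shares over all probe-sets, 7.8% higher in crown and 6.28% higher in leaf, or 13.4% and 6.53% without the 2 arrays. Lower RNA per cell and fewer cells of a type give the same value in whole tissue and cannot be told apart.

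**Figure D1:**
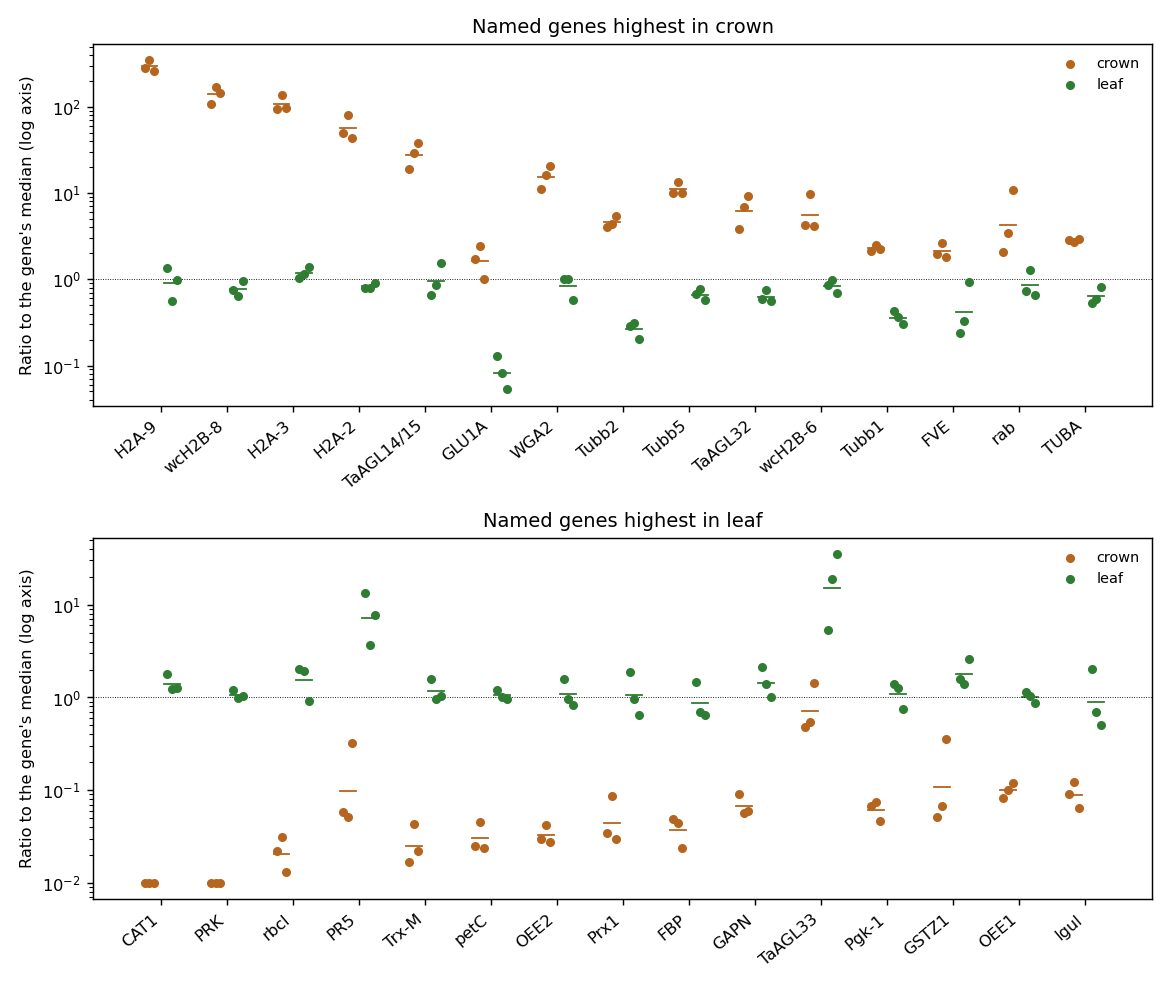
Deposited ratios on the 3 crown arrays (brown) and 3 leaf arrays (green) for the 15 named genes highest in crown and the 15 highest in leaf, each by its most extreme probe-set, on a log axis. Points run from 3 to 9 weeks within a tissue and bars are geometric means; genes were chosen among those whose tissues do not overlap, and CAT1 and PRK lie at 0.01 in crown.

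The named genes furthest towards crown were the histone genes H2A-9, wcH2B-8, H2A-3 and H2A-2. Of 30 probe-sets for chromatin and cell division, 27 were higher in crown, 0 were higher in leaf and 3 did not pass, with a median difference of 4.09 log2 against -0.00421 over all probe-sets. The count was 27 again without the 2 arrays. H2A-9, a histone H2A gene, had ratios of 283, 345 and 262 in crown, against 1.33, 0.554 and 0.987 in leaf (log2 difference 8.36, SE 0.34, adjusted p = 2.61e-05, at the leading probe-set). The 2 tissues were far from overlapping. All 6 probe-sets of H2A-9 were higher in crown, by 6.18 to 8.36 log2. All 7 probe-sets of wcH2B-8, a histone H2B gene, were higher in crown too, by 3.59 to 7.50. Its leading probe-set had 109, 172 and 143 in crown and 0.756, 0.632 and 0.953 in leaf (7.50, SE 0.25, adjusted p = 1.27e-05). H2A-2 differed by 6.09 and wcH2B-6 by 2.73.

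H2A-3 was not uniform. One probe-set had 93.5, 139 and 97.5 in crown, against 1.05, 1.15 and 1.4 in leaf (6.51, adjusted p = 1.57e-05). A second, of the shared type, had 0.362, 0.494 and 0.877 in crown and 0.820, 0.646 and 1.640 in leaf (-0.82, adjusted p = 0.327). The suffix s marks probes shared by several transcripts and x marks probes that may match others, so members of the histone families are not fully separated on this array.

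Most tubulin probe-sets, for the protein of the microtubules of spindle and cell cortex, were also higher in crown. Tubb2 had 4.04, 4.33 and 5.48 in crown, against 0.288, 0.313 and 0.201 in leaf (4.12, SE 0.23, adjusted p = 8.28e-05). Tubb5 had 10.0, 13.6 and 10.1 in crown and 0.668, 0.770 and 0.573 in leaf (4.06), and its 4 probe-sets all passed. Tubb1 differed by 2.67, a TUBA probe-set by 2.16 and Tubb3 by 1.84. Tubb4 had 0.822, 0.909 and 1.180 in crown and 0.605, 0.760 and 0.583 in leaf (0.57, adjusted p = 0.136), and a second TUBA probe-set did not pass either (1.21, adjusted p = 0.161). Hmgb3, a chromatin protein that bends DNA, was higher in crown by 1.11 and 1.1 at its 2 probe-sets.

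Of 9 translation probe-sets, 3 were higher in crown, 0 were higher in leaf and 6 did not pass, so 33.3% were higher in crown, against 7.8% of all probe-sets, and the median was 0.70. The initiation factor subunit eIF-2-beta had 1.86, 2.46 and 1.94 in crown, against 0.477, 0.518 and 1.230 in leaf (1.62, adjusted p = 0.031). The elongation factor TEF1 differed by 1.17 and the cap-binding protein NCBP by 1.15. In all 3 genes the highest leaf value was that of the 9-week array. Leaving out 1 array at a time lost the call of eIF-2-beta and of TEF1 in 5 of 6 fits each (adjusted p up to 0.128 and 0.0991). Of the 9, 5 passed without the 2 arrays, with eIF4E and a second TEF1 probe-set added. XTH, which cuts and rejoins xyloglucan in growing walls, had 1.52, 2.69 and 1.35 in crown and 0.550, 0.560 and 0.268 in leaf (2.02, adjusted p = 0.0143), whereas COMT1 of lignin synthesis had 0.751, 0.967 and 1.102 in crown and 0.980, 0.575 and 0.764 in leaf (0.30, adjusted p = 0.584). FKBP70, a prolyl isomerase that works with chaperones, was higher in crown by 1.86 (adjusted p = 0.0417). It did not pass in 5 of the 6 fits without 1 array (adjusted p up to 0.16), nor after quantile normalisation (adjusted p = 0.101). The small heat shock gene hsp16.9A stood at -0.05 (adjusted p = 0.922). AdSS, the adenylosuccinate synthetase of purine synthesis, had 1.76, 2.45 and 1.74 in crown and 0.497, 0.530 and 1.040 in leaf (1.59, adjusted p = 0.0189).

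**Figure D2:**
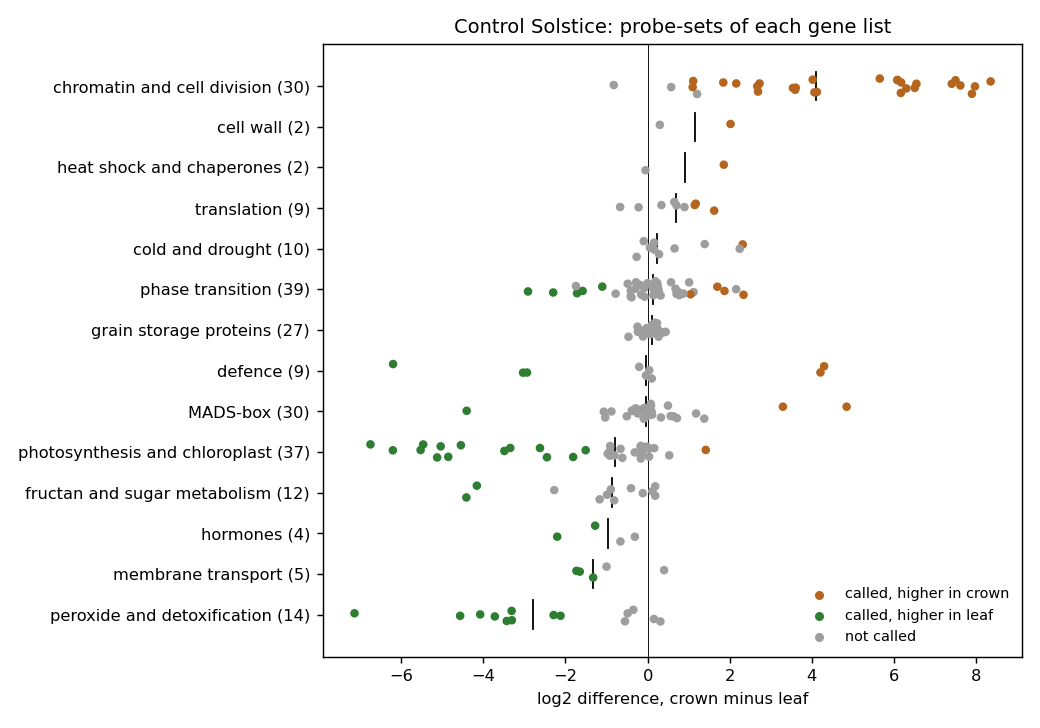
log2 difference, crown minus leaf, of every probe-set in 14 gene lists (number of probe-sets in brackets), with the list median as a black bar. Brown points passed higher in crown, green points passed higher in leaf and grey points did not pass; the chromatin and cell division list has a median of 4.09 and the peroxide and detoxification list one of -2.80.

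Many genes of photosynthesis were higher in leaf. Of 37 probe-sets for chloroplast and photosynthesis genes, 14 were higher in leaf, 1 was higher in crown and 22 did not pass, with a median of -0.80. The share higher in leaf was 37.8%, against 6.28% of all probe-sets. Most of those that did not pass were probe-sets of 1 gene, rbcl. PRK, the phosphoribulokinase that regenerates the acceptor of carbon dioxide, stood at 0.01, 0.01 and 0.01 in crown, against 1.22, 0.986 and 1.04 in leaf. The leaf level was at least 108-fold higher, since the crown values are at the lowest value of the table (adjusted p = 7.15e-06). FBP, a fructose bisphosphatase, had 0.049, 0.044 and 0.024 in crown and 1.47, 0.700 and 0.642 in leaf (-4.55, SE 0.41, adjusted p = 0.000567). Its second probe-set had 2.44, 1.45 and 1.04 in crown and 1.57, 2.24 and 1.41 in leaf (-0.15, adjusted p = 0.881).

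Proteins of the electron transport chain followed PRK. petC, the Rieske protein of the cytochrome b6f complex, had 0.025, 0.046 and 0.024 in crown, against 1.19, 1.01 and 0.973 in leaf (-5.12, adjusted p = 7.5e-05). OEE2 and OEE1, which shield the oxygen-evolving centre of photosystem II, stood at -5.04 and -3.34 at their leading probe-sets. OEE2 had 0.030, 0.042 and 0.028 in crown and 1.59, 0.960 and 0.823 in leaf. Trx-M, a chloroplast thioredoxin that switches enzymes on in light, had 0.017, 0.043 and 0.022 in crown and 1.58, 0.971 and 1.03 in leaf (-5.53, adjusted p = 0.00018). A second petC probe-set had values between 0.793 and 0.947 in crown and between 1 and 1.09 in leaf (-0.31, adjusted p = 0.297).

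The large Rubisco subunit, rbcl, has 28 probe-sets on the array. Of these, 7 were higher in leaf, 1 was higher in crown and 20 did not pass, and the differences ran from -6.20 to 1.42. The probe-set that stood furthest towards leaf had 0.022, 0.031 and 0.013 in crown, against 2.04, 1.92 and 0.907 in leaf (SE 0.43, adjusted p = 0.000182). The one higher in crown had 2.73, 2.42 and 1.69 in crown and 0.723, 1.00 and 0.807 in leaf (1.42, adjusted p = 0.00905). Probe-sets that share this gene name thus gave opposite directions, and the name alone does not fix what each one measured.

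Peroxide and detoxification genes were also higher in leaf. Of 14 probe-sets 9 were higher in leaf, 0 were higher in crown and 5 did not pass, with a median of -2.80. CAT1, the leaf catalase of peroxisomes, stood at 0.01, 0.01 and 0.01 in crown, against 1.79, 1.22 and 1.27 in leaf, which is at least 141-fold (adjusted p = 7.68e-06). Like PRK it is a bound, so the 2 genes have no order. A second CAT1 probe-set had 0.972, 0.680 and 0.699 in crown and 1.16, 1.12 and 0.733 in leaf (-0.35, adjusted p = 0.497). Prx1 had 0.035, 0.086 and 0.030 in crown and 1.90, 0.963 and 0.654 in leaf (-4.57, adjusted p = 0.00163), and 3 of its 4 probe-sets passed. GSTZ1, a zeta-class glutathione transferase, had 0.051, 0.067 and 0.359 in crown and 1.60, 1.41 and 2.61 in leaf (-4.08, adjusted p = 0.0106). The lactoylglutathione lyase lgul, which clears methylglyoxal, had 0.090, 0.123 and 0.065 in crown and 2.03, 0.693 and 0.5 in leaf (-3.31, adjusted p = 0.0071). After quantile normalisation this lgul probe-set did not pass (-2.27, adjusted p = 0.103). PER1 did not pass at either of its 2 probe-sets.

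Of 12 probe-sets for sugar and fructan metabolism, 2 were higher in leaf (16.7%), 0 were higher in crown and 10 did not pass, with a median of -0.86. GAPN, a glyceraldehyde phosphate dehydrogenase that makes NADPH, had 0.092, 0.057 and 0.060 in crown, against 2.13, 1.41 and 1.02 in leaf (-4.41, adjusted p = 0.000243). Pgk-1, a phosphoglycerate kinase, had 0.067, 0.075 and 0.047 in crown and 1.4, 1.27 and 0.758 in leaf (-4.16, adjusted p = 0.000222). As with every probe-set that passed, the values of these 2 genes did not overlap between tissues. BMY1, a beta-amylase, had 0.195, 0.25 and 0.22 in crown and 2.78, 1.89 and 0.230 in leaf (-2.27, adjusted p = 0.154), so its 9-week leaf value lay among the crown values. Without the 2 arrays it differed by -3.29 (adjusted p = 0.00149), and 5 of the 12 probe-sets passed. The fructan exohydrolases 6-FEH and 1-FEH, which release fructose from stored fructan, had differences between -0.99 and 0.12 and of -1.17. None passed with all 6 arrays, although 1 of the 3 6-FEH probe-sets had an adjusted p of 0.0406 at under 2-fold (-0.90).

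Transport and hormone genes that passed were higher in leaf. The plasma membrane proton pump gene ha1 had 0.194, 0.292 and 0.521 in crown, against 0.897, 0.959 and 1.26 in leaf (-1.73, adjusted p = 0.0216). TPC1, a calcium channel of the vacuole, had 0.354, 0.520 and 0.729 in crown and 1.01, 1.11 and 1.88 in leaf (-1.33, adjusted p = 0.0463). Without the 2 arrays TPC1 differed by -0.79 (adjusted p = 0.0591). Leaving out 1 array lost the call of TPC1 in 5 of 6 fits and that of ha1 in 4 (adjusted p up to 0.147 and 0.0913). In all, 3 of 5 transport probe-sets passed with all arrays and 2 of 5 without the 2 arrays. The gibberellin 20-oxidase genes, which carry out the last oxidations before bioactive gibberellin, passed at 2 of 4 probe-sets (50.0%), and at 25.0% without the 2 arrays. GA20ox1b had 0.550, 0.462 and 0.529 in crown and 1.42, 1.83 and 5.03 in leaf (-2.20, adjusted p = 0.0196). GA20ox1a differed by -1.28 (adjusted p = 0.0428) and by -0.89 without the 2 arrays (adjusted p = 0.0715), and both GA20ox1d probe-sets missed the threshold. The GA20ox1a call was lost in 5 of the 6 fits without 1 array (adjusted p up to 0.165).

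Defence genes split between the tissues, with 2 of 9 probe-sets higher in crown (22.2%), 3 higher in leaf (33.3%) and 4 that did not pass. WGA2, a chitin-binding lectin of the wheat germ agglutinin family, had 11.0, 16.2 and 20.8 in crown, against 1.02, 1.01 and 0.570 in leaf (4.21, SE 0.33, adjusted p = 0.000309). GLU1A, a beta-glucosidase gene, had 1.70, 2.43 and 1.01 in crown and 0.128, 0.081 and 0.053 in leaf (4.30, SE 0.43, adjusted p = 0.000854). In the other direction, the thaumatin-like protein gene PR5 had 0.058, 0.052 and 0.320 in crown and 13.45, 3.68 and 7.72 in leaf (-6.20, SE 0.79, adjusted p = 0.0026). The xylanase inhibitor XIP-I had 0.203, 0.380 and 0.299 in crown and 1.75, 1.58 and 4.58 in leaf (-3.03, adjusted p = 0.00514), with a like value at its second probe-set. The 4 others, for Glc1, TTHV and wci, lay between -0.20 and 0.10.

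Of 10 cold and drought probe-sets, 1 was higher in crown (10.0%, against 7.8% of all probe-sets) and 0 were higher in leaf. Their median was 0.22 in the controls and -0.11 in Harnesk, against -0.00421 and -0.159 over all probe-sets. The dehydrin gene rab had 2.08, 3.44 and 10.7 in crown, against 0.736, 1.29 and 0.658 in leaf (2.32, SE 0.60, adjusted p = 0.0453), a call lost in 4 of the 6 fits without 1 array (adjusted p up to 0.142). Its second probe-set of the same transcript cluster missed the threshold (2.24, adjusted p = 0.0533). LEA had 0.849, 1.29 and 14.4 in crown and 0.967, 0.877 and 1.03 in leaf (1.39, adjusted p = 0.483). In LEA only the 9-week crown array departed from the rest. COR410 had 0.750, 0.997 and 0.824 in crown and 0.941, 1.3 and 0.878 in leaf (-0.27, adjusted p = 0.559).

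Grain storage genes, which neither tissue was taken to express, gave a reference point. None of their 27 probe-sets passed in either direction with limma, none had an unadjusted p below 0.05, and the differences ran from -0.47 to 0.44 with a median of 0.11. With the 2 arrays left out 1 passed, a probe-set of the amylase inhibitor gene ATI (-1.41, adjusted p = 0.00555). Its values were 2.24, 0.963 and 0.806 in crown and 2.26, 2.42 and 0.837 in leaf. Among the genes on no list, 1 of 35 probe-sets was higher in crown and 5 were higher in leaf, among them the zinc finger gene WZF1 (-2.50, adjusted p = 0.0183) and the lipid transfer protein gene LTP3 (-1.60, adjusted p = 0.0225).

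Of the flowering genes, TaVRN1, the MADS-box gene that promotes the switch to flowering, did not pass at any of its 4 probe-sets. The first had 0.214, 0.262 and 3.35 in crown, against 0.236, 0.283 and 0.755 in leaf (0.63, SE 1.07, adjusted p = 0.821). Crown minus leaf was -0.14 and -0.11 log2 at 3 and 5 weeks and 2.15 at 9 weeks. The second had 0.323, 0.419 and 2.41 in crown and 0.306, 0.381 and 0.995 in leaf, and the third had 0.332, 0.533 and 1.60 in crown and 0.410, 0.398 and 0.881 in leaf. The fourth stayed between 0.830 and 1.02 in crown and between 0.850 and 1.60 in leaf. With 1 array per tissue and week, the 9-week values could not be tested. TaAGL10 had the same shape, with 0.676, 0.713 and 3.57 in crown and 0.782, 0.691 and 0.991 in leaf (0.56, adjusted p = 0.702).

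Of the 30 MADS-box probe-sets that the study listed, 2 were higher in crown, 1 was higher in leaf and 27 did not pass, with a median of -0.04. The shares of 6.67% in crown and 3.33% in leaf were near those over all probe-sets. The study drew that list up for these and other samples of the series, so its counts are a description. TaAGL14/15 had 18.8, 29.3 and 38.4 in crown, against 0.660, 0.869 and 1.54 in leaf (4.85, SE 0.39, adjusted p = 0.000348). TaAGL32 had 3.78, 6.84 and 9.19 in crown and 0.589, 0.757 and 0.563 in leaf (3.30, SE 0.34, adjusted p = 0.00102). Both were above 3 on every crown array. TaAGL33, which is related to the barley floral repressor ODDSOC2, had 0.483, 0.545 and 1.42 in crown and 5.30, 19.1 and 35.1 in leaf (-4.41, SE 0.74, adjusted p = 0.00844). A probe-set that TaAGL33 shares with TaAGL41 had 0.589, 1.14 and 2.18 in crown and 1.35, 1.68 and 4.02 in leaf (-0.88, adjusted p = 0.435). TaAGL42 had 0.641, 0.846 and 1.25 in crown and 1.37, 1.78 and 2.54 in leaf, without overlap (-1.06, adjusted p = 0.0795). Its differences within 3, 5 and 9 weeks were -1.10, -1.07 and -1.02, and it passed with week as a block (adjusted p = 0.00971). TaAGL13/19 had 0.853, 1.73 and 3.07 in crown and 0.471, 0.5 and 1.09 in leaf (1.38, adjusted p = 0.153). Its 2 probe-sets passed without the 2 arrays, at 2.25 and 1.99, and with week as a block (adjusted p = 0.0135 and 0.0116). The values given rose with week in both tissues, and the fit without the 2 arrays mixes week with tissue.

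**Figure D3:**
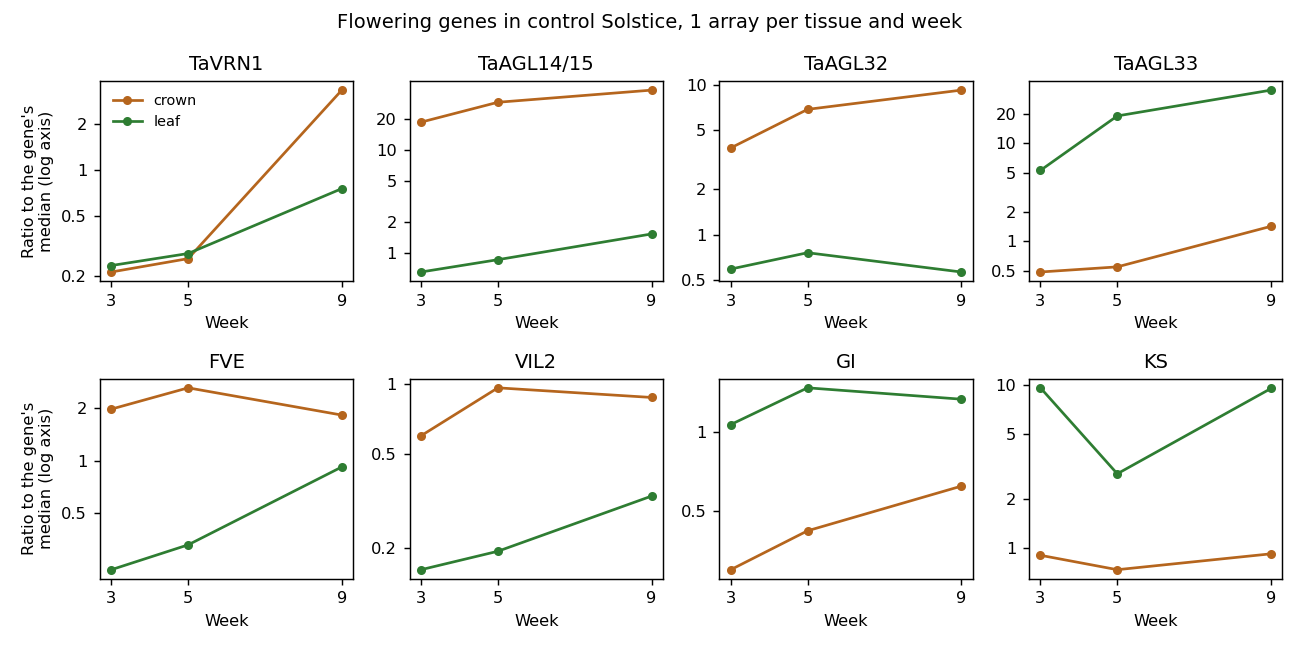
Deposited ratios by week in control crown (brown) and control leaf (green) for 8 flowering genes, 1 array per point, on log axes that differ between panels. TaAGL14/15 and TaAGL32 are higher in crown and TaAGL33, GI and KS higher in leaf at every week, while the TaVRN1 tissues part at 9 weeks.

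Of the 39 phase transition probe-sets of the study, 4 were higher in crown (10.3%), 5 were higher in leaf (12.8%) and 30 did not pass. FVE, a homologue of a histone-binding protein of the Arabidopsis autonomous pathway, had 1.97, 2.60 and 1.82 in crown, against 0.238, 0.330 and 0.919 in leaf (2.34, SE 0.49, adjusted p = 0.0204), a call lost in 4 of the 6 fits without 1 array (adjusted p up to 0.0914). VIL2, of the VIN3-like family that in Arabidopsis acts in vernalisation, passed at both of its probe-sets (1.87 and 1.70), with 0.601, 0.963 and 0.876 in crown and 0.161, 0.193 and 0.332 in leaf at the first. One of the TOC1 probe-sets, for a component of the circadian clock, was higher in crown by 1.05 (adjusted p = 0.0153). The others were between -0.41 and 0.25 and did not pass. The genes higher in leaf were early steps of gibberellin synthesis and clock genes. KS, the ent-kaurene synthase, had 0.907, 0.740 and 0.926 in crown and 9.66, 2.87 and 9.56 in leaf (-2.91, adjusted p = 0.00767), and KO, the ent-kaurene oxidase, had 0.595, 0.691 and 0.739 in crown and 5.99, 1.22 and 4.97 in leaf (-2.30, adjusted p = 0.0409). In both the 5-week leaf array was the lowest of the 3. GI, which links the clock to day-length, had 0.3, 0.422 and 0.624 in crown and 1.07, 1.48 and 1.34 in leaf (-1.58, adjusted p = 0.013), and an LHY probe-set differed by -1.72 (adjusted p = 0.0434).

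Without the 2 arrays that stand apart, 12 phase transition probe-sets were higher in crown (30.8%) and 2 higher in leaf (5.13%). Calls higher in crown became more frequent over all probe-sets as well, at 13.4% against 7.8% with all 6 arrays. PHYA, a red and far-red light receptor, had 2.20, 3.83 and 6.97 in crown, against 0.460, 0.654 and 2.20 in leaf, and its difference was 2.16 (adjusted p = 0.0783) with all 6 arrays and 3.24 (adjusted p = 0.00394) without the 2. With week as a block it passed on all 6 arrays (adjusted p = 0.00298). TFL1, which keeps Arabidopsis meristems indeterminate, had 1.13, 2.56 and 2.13 in crown and 0.936, 0.905 and 0.707 in leaf (1.12, adjusted p = 0.0674), and passed without the 2 arrays (1.34, adjusted p = 0.00634). PDF2, VIL3, EMF2, ESD4 and 2 FCA probe-sets passed there as well, but not with all 6 arrays. KO, LHY and a second KS probe-set passed only with all 6 arrays. FT, the mobile flowering signal made in leaves, had 1.17, 0.843 and 0.887 in crown and 1.502, 1.22 and 0.880 in leaf (-0.30, adjusted p = 0.578).

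The tissue difference of each week is a description, with 1 array on each side. At 3 weeks 14343 probe-sets lay at least 2-fold apart, 6779 of them higher in crown and 7564 higher in leaf. At 5 weeks the numbers were 8719 higher in crown and 5088 higher in leaf, and at 9 weeks 5343 and 5435. Across probe-sets the week differences correlated with each other at r = 0.829 to 0.847, where genes are not independent replicates. Among the probe-sets called in Harnesk, 94.7% had the same sign at 3 weeks, 97.7% at 5 weeks and 88.5% at 9 weeks. PR5 stood at -7.86, -6.14 and -4.59 in the same order of weeks, and H2A-9 at 7.73, 9.28 and 8.05. Neither gene is evidence of a trend with week, which was not tested. Both arrays that stand apart lie at the ends of the series, as the 3-week crown array and the 9-week leaf array. Their part in the changes between weeks, in the counts as in these genes, was not tested.

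The tissue difference without cooling was then set against that of Harnesk, whose arrays are of other plants. Which arrays entered the median of each gene is not stated, so the deposited values of both sets may share a normalisation. Harnesk had 15719 calls at the same thresholds (25.7%), with 6 arrays per tissue in place of 3. Of the control calls 7842 were called in Harnesk and 7840 ran the same way, which is 91.0% of the control calls and 49.9% of the Harnesk calls. The exceptions, singled out after their values were seen, were Ta.20930.1.S1_at (-1.34 in the controls) and TaAffx.144000.1.S1_s_at (2.44), neither of which has a gene name here. Over all probe-sets the differences correlated at r = 0.90 across genes, and at 0.933 without the 2 arrays. Of the 87 named probe-sets called in the controls, 86 had the same sign in Harnesk, as did 99.4% of all control calls, TPC1 being the exception (-1.33 in the controls and 0.07 in Harnesk). The control calls higher in crown had a median of 2.00 in the controls and 2.48 in Harnesk, and those higher in leaf had medians of -2.20 and -2.18.

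**Figure D4:**
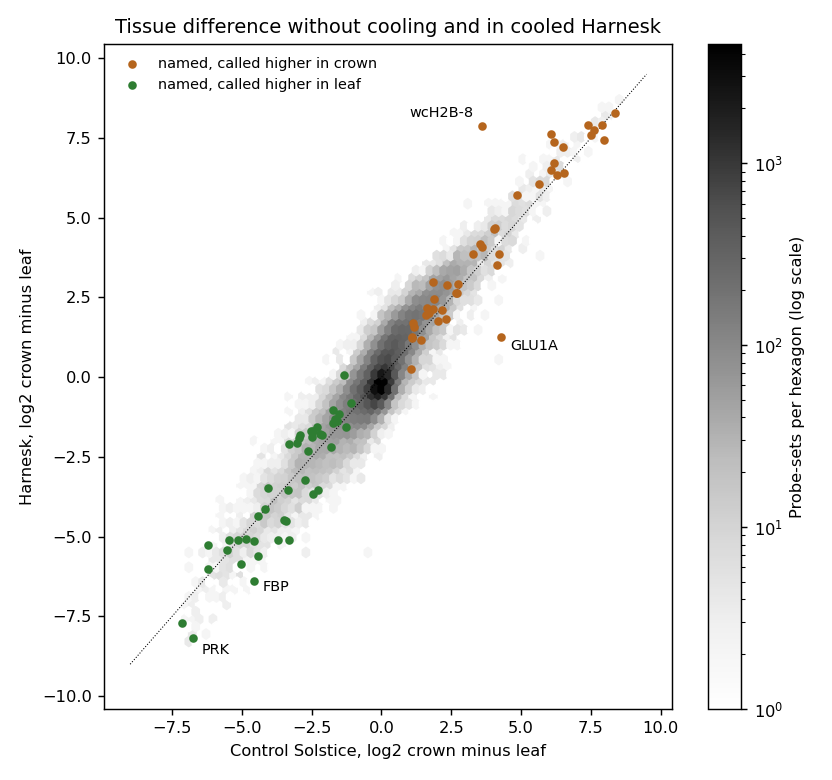
log2 difference, crown minus leaf, in control Solstice (horizontal, 3 against 3 arrays) and in Harnesk (vertical, 6 against 6 arrays) for 61179 probe-sets, shaded by number, with the line of equality dotted. Named probe-sets called in the controls are brown (higher in crown) or green (higher in leaf); wcH2B-8, GLU1A, FBP and PRK are labelled, and wcH2B-8 stands at 3.59 in the controls against 7.87 in Harnesk.

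The control difference minus the Harnesk difference passed at 1206 probe-sets (1.97%), with the control difference above that of Harnesk in 410 (0.67%) and below it in 796 (1.3%). Without the 2 arrays 590 passed (0.964%), 284 above and 306 below. Variety, cooling and the scale of each set of arrays cannot be told apart in this comparison. Of the 265 named probe-sets 4 stood above and 2 below. Both below were for wcH2B-8. The probe-set with the smallest tissue difference in the controls differed by 3.59 there and by 7.87 in Harnesk, where its means were 199 in crown and 0.851 in leaf (difference -4.27, SE 0.23, adjusted p = 9.32e-09), and the other by 6.08 in the controls and 7.64 in Harnesk. The other 5 probe-sets of the gene did not pass this test, with values of -1.21 to 0.16. FBP stood 1.85 nearer to 0 in the controls (-4.55) than in Harnesk (-6.40, adjusted p = 0.0376), and did not pass without the 2 arrays (1.43, adjusted p = 0.217). For PRK the control value is a bound, because its crown arrays are at the lowest value, and the difference of 1.42 from Harnesk is therefore not a measured one. GLU1A differed by 4.30 in the controls and 1.26 in Harnesk, which did not pass (3.04, SE 1.06, adjusted p = 0.115).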

How the data were processed

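Per the labels and the study's methods, labelled RNA was hybridised to the Affymetrix Wheat Genome Array and scanned with Microarray Suite 5.0.1. The authors summarised probes by RMA in GeneSpring GX 7.3 and divided each gene by its median, so the deposited values are linear ratios with no unit. Which arrays entered that median is not stated. The lowest deposited value is 0.01, so folds against arrays at 0.01 are lower bounds.

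Rows of 24 other columns do not follow the probe-set identifiers and those columns were not used. The remaining 18 arrays (6 control, 12 Harnesk) were used as log2 ratios without further scaling, after 111 control probe-sets with AFFX identifiers were left out. Reporter probe-sets, with RPTR identifiers, stayed among those tested. Crown and leaf were compared with limma 3.58.1 in R 4.3.3 on the 6 control arrays, with Benjamini-Hochberg adjustment over 61179 probe-sets. Every adjusted p in the text is from limma. A call is an adjusted p below 0.05 and a difference of at least 2-fold. The difference from Harnesk was tested as an interaction of 4 group means on 18 arrays. Scripts were tested on simulated data.

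Each control tissue has 1 array per week and each RNA pooled 4 plants, so p-values measure the spread between these arrays, which mixes weeks with pools. Array number limits the precision.

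Genes were named from RefSeq's wheat annotation, in which 1273 probe-sets have a gene (1077 of them only a locus number, not named here), and from the study's flowering lists, giving 265 probe-sets of 149 genes. No homeobox gene had a name. The genes named are the 15 with the largest differences in each direction whose tissues do not overlap, up to 4 of each list in each direction, the study's flowering genes and the named genes that differ from Harnesk; others shown were chosen after their values were seen. The groups, lists and tests were chosen with earlier results of these data known. Alternatives were leaving out arrays, a week block, array weights, centring, quantile normalisation, a higher floor, a filter on probe-sets at the lowest value, a mean trend, the methods' t-test and a single fit of 18 arrays. Sequences of the members were not used here.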

Additional observations from a re-analysis of the deposited data

Results flagged for a closer look

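The tissue difference of control Solstice differed from that of Harnesk at 1206 probe-sets by the test of the difference itself, and 6 of them have a gene name. Variety, cooling and scale cannot be told apart in these values. The histone gene wcH2B-8 stood below Harnesk at 2 of its 7 probe-sets. One had 5.71, 9.73 and 10.86 in control crown and 0.674, 0.728 and 0.698 in control leaf, and its difference from Harnesk was -4.27 (SE 0.23, adjusted p = 9.32e-09). Without the 2 arrays that stand apart it was -3.99 (adjusted p = 1.88e-08). Against the 3-week Harnesk arrays alone, taken before any cooling, it was -4.56 (adjusted p = 0.00213). That fit kept the control arrays of all weeks, so age and light differed between its sides. The other had a difference of -1.55 (adjusted p = 0.0229), with -1.78 (adjusted p = 0.0306) without the 2 arrays and -1.88 (adjusted p = 0.118) against the 3-week arrays. The remaining 4 named genes stood above Harnesk. FBP did so by 1.85 (adjusted p = 0.0376). For PRK the value was 1.42 (adjusted p = 0.0052), which rests on crown arrays at the lowest deposited value. The thionin gene THI1.1 had 1.03 (adjusted p = 0.019) and raftin1b, of the anther, had 1.04 (adjusted p = 0.0258), each at 1 of its 2 probe-sets, and neither of these differed between control crown and leaf (0.44 and -0.20). Without the 2 arrays FBP, THI1.1 and raftin1b no longer passed (adjusted p = 0.217, 0.117 and 0.112).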

How the results depend on the processing

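The count of 8618 differences of at least 2-fold stayed within a factor of 1.5 under the other scalings, floor, filter, weights, variance trend and fits run, except for the methods' t-test after Benjamini-Hochberg adjustment (3839, against 9353 unadjusted). With each array left out in turn it lay between 5434, without the 5-week crown array, and 9868, without the 9-week leaf array. The count of 5434 lies outside the factor of 1.5. The 5-fold count lay between 2995 and 3869. With week as a replicate block, 10343 probe-sets passed, and of the 265 named probe-sets 12 were gained and 1, for KS (adjusted p = 0.0535), was lost. The deviations of same-week arrays correlated at 0.339, -0.178 and 0.545 at 3, 5 and 9 weeks. Crown and leaf of a week shared age and light. The main fit did not pair them, so changes shared within a week remain in its spread. The count of differences from Harnesk was the least stable. It was 590 without the 2 arrays that stand apart, 3167 after quantile normalisation and 2085 with the replicate block. With control arrays of all weeks against 3-week Harnesk arrays alone, the count was 308. Leaving out 1 array gave 592 (without the 9-week leaf array) to 2763 (without the 9-week crown array), with 679 without the 3-week crown array and 2510 without the 3-week leaf array. The cause was not tested. Of the 87 named probe-sets that passed, 45 were followed through the alternatives, chosen mostly as the largest differences of their lists. Of these 45, 30 passed without each array in turn, 16 were lost in at least 1 alternative and 0 changed sign. The LHY probe-set that passed, LTP3 and AdSS were not among them, so their calls were not followed with each array left out. Leaving out 1 array lost the calls of FKBP70, eIF-2-beta, TEF1, KO, GA20ox1a and TPC1 in 5 of 6 fits, of FVE, rab and ha1 in 4, of GI in 2, and of GA20ox1b, GSTZ1, NCBP, VIL2 and XTH in 1. Quantile normalisation lost 9 of the 45 calls, those of FKBP70, FVE, GA20ox1a, KO, TEF1, XTH, eIF-2-beta, lgul and rab. Values at 0.01 limit CAT1 and PRK to bounds.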
